A study of Mus musculus with 10 samples.

Results

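Heat shock proteins are molecular chaperones, and cochaperones are the proteins that choose their clients and drive their cycle. All gene symbols that start with Hspa, Hspb, Hsp90 or Dnaj were taken, with Hspd1, Hspe1, Hsph1, Hsf1, Hsf2 and every Bag gene with a number, and 3 pseudogene rows (-ps) were left out. This gave 82 of 48397 gene symbols. They comprised 13 Hspa genes, 6 genes of the HSP90, HSP60, HSP10 and HSP110 classes, 8 Hspb genes, 4 Dnaja, 13 Dnajb and 28 Dnajc genes, 6 Bag genes, 2 heat shock factor genes and 2 genes, Hspbp1 and Hspbap1, that the prefix alone brought in. The mice were wild type and, per the design text, males of strain C57BL/6J, operated on at 2 months of age. Surgery was either transverse aortic constriction (TAC), in which a ligature around the aorta makes the heart pump against a higher pressure, or a sham operation, and left atrial RNA was read 2 weeks later. There were 5 TAC and 5 sham libraries, and n counts libraries throughout. Nothing states that each library was its own animal, and p-values therefore reflect only how these libraries spread, which may be technical. The material is described either as atrium with the Nugen Trio low-input kit or as appendage with a TruSeq kit, and which was used is not known here.

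HSP70 proteins (Hspa) bind exposed hydrophobic stretches of unfolded proteins in a cycle of ATP binding and hydrolysis. J-domain proteins (Dnaj), named for bacterial DnaJ, bring clients and trigger hydrolysis, and nucleotide exchange factors, among them BAG proteins and the HSP110 class, release the client. HSP90 proteins finish the folding of kinases, receptors and myosin, HSP60 and HSP10 form the folding chamber of the mitochondrial matrix, and small heat shock proteins (Hspb) hold unfolded proteins without ATP and are abundant in striated muscle. In muscle, the small heat shock protein HSPB8 works with BAG3 to clear damaged parts of the Z-disc. Heat shock factor 1 induces many of these genes when unfolded proteins accumulate, whereas the endoplasmic reticulum (ER) members answer to the unfolded protein response.

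Most members were lower in TAC atria, and no member rose by a log2 fold change of 1 or more. Of the 82, 75 had enough counts for the test across all genes. Of these 75, 13 rose and 46 fell at an adjusted p under 0.05 (edgeR's quasi-likelihood test), and 16 were not called. Over all 15175 genes tested, 28.9% rose and 27.9% fell. The median log2 fold change (TAC over sham) was -0.42 over the members and 0.01 over all genes tested. Of the members that fell, 19 had a log2 fold change of -1 or lower. All 5 TAC libraries lay above all 5 sham libraries for 5 members and below them for 39. Over all genes tested, such a separation occurred above for 21.5% and below for 20.2%. The members together took 0.978% ± 0.0322 of the counts over genes in TAC libraries and 1.31% ± 0.199 in sham libraries (SD, n = 5 each). Sham replicates 2 and 5 had the highest shares, 1.43% and 1.60%. The difference between the means, TAC minus sham, was -0.33 percentage points, and -0.20 without sham replicates 2 and 5. These counts of calls depended on the scaling: with library size alone, 24 members rose and 30 fell, against 51.0% and 12.7% of all genes, and the median of all genes moved to 0.37. Under that scaling the 30 that fell were all among the 46, and the 13 that rose were all called again.

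The 7 untested members were Dnajb13, Dnajb7, Dnajb8, Dnajc22, Dnajc5b, Dnajc5g and Hspb9. None had more than 73 counts over the 10 libraries, and Dnajb8 and Dnajc5g had no count at all.

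**Figure D1:**
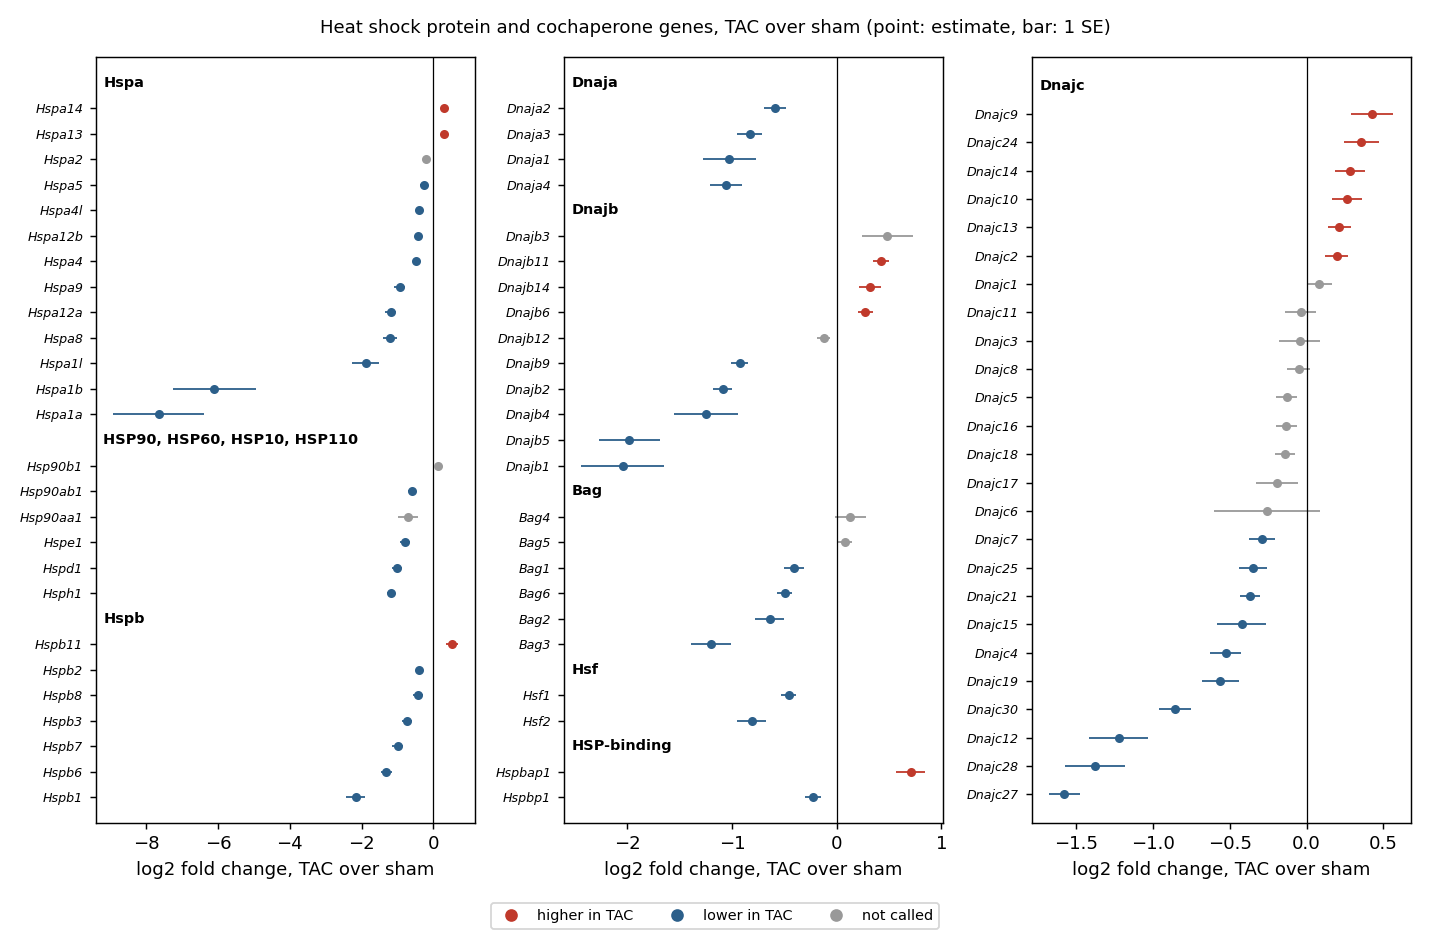
Log2 fold change (TAC over sham, x axis; the 3 panels have different scales) of the 75 tested members by family, with bars of 1 standard error and colours for the call. Blue points, the 46 members that fell, fill most families, and the 13 red points lie mainly among the Dnajb and Dnajc genes.

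Libraries held 17117306 to 43956384 counts over genes. Atrial identity was visible in both groups: the summed level of 5 atrial genes, among them Nppa and Myl7, was 17849 to 22182 CPM, counts relative to the effective library size, in TAC libraries and 27053 to 29861 in sham libraries. Of these 5, Nppa rose, Myl7, Sln and Myl4 fell, and 1 was not called. Myl7 is also on the cardiomyocyte list. A list of ventricular genes, among them Myl2, summed to 182, 17.9, 72.9, 41.6 and 327 CPM in TAC replicates 1 to 5. In sham replicates 1 to 5 it summed to 122, 161, 21.2, 133 and 540 CPM, with replicates 5 and 2 the highest. The part of such tissue in the other values of these libraries was not tested. Sums over some marker lists differed between the groups, and others overlapped. Endothelial markers summed to 930 to 1312 CPM in TAC and 911 to 1228 in sham, and mesothelial markers to 121 to 297 and 80.2 to 294. Adipocyte markers summed to 0.52 to 16.4 CPM in TAC and 18.9 to 59.7 in sham, with sham replicates 2 and 5 the highest. All 8 cardiomyocyte markers fell (28854 to 41020 CPM in TAC, 71591 to 84841 in sham), and 6 of 6 macrophage markers rose (286 to 551 against 152 to 238). Of 6 fibroblast markers, 4 rose and 1 fell (4258 to 8971 against 1713 to 2315). All 6 genes of cycling cells rose, and lymphocyte markers stayed near 0, at 0.81 to 2.28 CPM in TAC and 0.56 to 2.36 in sham. No marker was at 0 in all libraries. In RNA from whole tissue, fewer cells of a type and less RNA per cell cannot be told apart, and the part of this shift in the results that follow was not tested.

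A pair of sham libraries stood apart for the genes that heat induces. A list of 14 members, called heat-induced here, was written for this description with earlier results of these data in view. Beside heat-inducible genes it holds Hspa8 and Hsp90ab1, the constitutive HSP70 and HSP90 genes. These carry much of its sum, at 2411 and 2021 CPM in sham replicate 5 and 683 and 1031 in TAC replicate 1. Of the 14, 13 fell, or 12 when scaled by library size alone. The summed level of the 14 was 2952, 3049, 3058, 3101 and 2977 CPM in TAC replicates 1 to 5. In sham replicates 1 to 5 it was 4553, 6414, 4773, 5424 and 9275 CPM. The TAC libraries were alike and all lay below the lowest sham library, whereas sham replicates 5 and 2 exceeded the other sham libraries. Sham replicate 5 was the highest sham library for all 14 of these members. It was the highest for 41 of all 75 members tested (54.7%), which include these 14, and for 23.0% of all genes tested. Sham replicate 5 followed by sham replicate 2 was the order for 11 of the 14, and Hsp90ab1, Bag3 and Hspd1 were the exceptions. That order held for 22 of the 75 members (29.3%) and 7.84% of all genes, so it was not limited to the list. A list of 15 immediate early genes, which cells switch on within minutes of a stimulus, also differed between these libraries. It summed to 463, 424, 370, 314 and 407 CPM in TAC replicates 1 to 5, and to 1432, 3099, 1369, 1639 and 2250 CPM in sham replicates 1 to 5. Of the 15, 14 fell and none rose. The part of this activity in the heat shock results was not tested. Without sham replicates 2 and 5 together, 6 members rose and 42 fell, and values without them are given below beside the called members they move most.

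The inducible HSP70 genes Hspa1a and Hspa1b had the largest differences of all members. They lie side by side on chromosome 17 of GRCm38 (mm10), Hspa1a at 34969190 to 34972156 and Hspa1b at 34956436 to 34959238, both on the minus strand. Hspa1a was counted at 0.32, 0.72, 0.33, 0.41 and 0.37 CPM in TAC replicates 1 to 5, and at 8.26, 115, 12.4, 12.9 and 294 CPM in sham replicates 1 to 5. In reads, these were 11 to 29 per TAC library and 133 to 7829 per sham library. Every sham library was above every TAC library, and sham replicates 2 and 5 were far above the other sham libraries. Hspa1b was at 1.20, 2.02, 1.66, 1.91 and 1.85 CPM in TAC replicates 1 to 5, and at 5.53, 144, 22.5, 18.6 and 406 CPM in sham replicates 1 to 5, with sham replicates 5 and 2 again the highest. The groups did not overlap for either gene. The fitted log2 fold change was -7.66 (SE 1.27, adjusted p = 0.00045) for Hspa1a and -6.11 (SE 1.16, adjusted p = 0.0011) for Hspa1b. Without sham replicate 5, the values were -6.40 for Hspa1a and -4.78 for Hspa1b. Without sham replicates 2 and 5 together they were -4.69 (SE 0.28) and -3.19 (SE 0.38), and both stayed called. Of the stretches of 50 bases in Hspa1a, 66.3% also occur in another gene, mainly Hspa1b, and 62.3% of those in Hspa1b. The deposited counts tally reads without a unique alignment apart from the genes (on average 15.8% of reads in sham and 13.4% in TAC libraries). Reads that fit both genes may thus be missing from both counts and from their sum. The same holds for the other members with shared stretches below. The sum of both genes was 1.53 to 2.74 CPM in TAC libraries and 13.8 to 699.6 in sham libraries. Gm20481, on the opposite strand, shares 19.0% of the exonic bases of Hspa1a. Hspa1l, a neighbour with related sequence that is best known from testis, was also highest in sham replicates 5 and 2, and fell too (log2 fold change -1.89, SE 0.38, adjusted p = 0.0014). Without sham replicates 2 and 5 its value was -1.10 (SE 0.19) and it stayed called. It ran from 1.60 to 2.12 CPM in TAC and from 3.28 to 14.8 in sham, but 71.9% of its exonic bases are shared with the opposite-strand gene Gm10501, and without a stated strand setting their reads cannot be told apart.

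**Figure D2:**
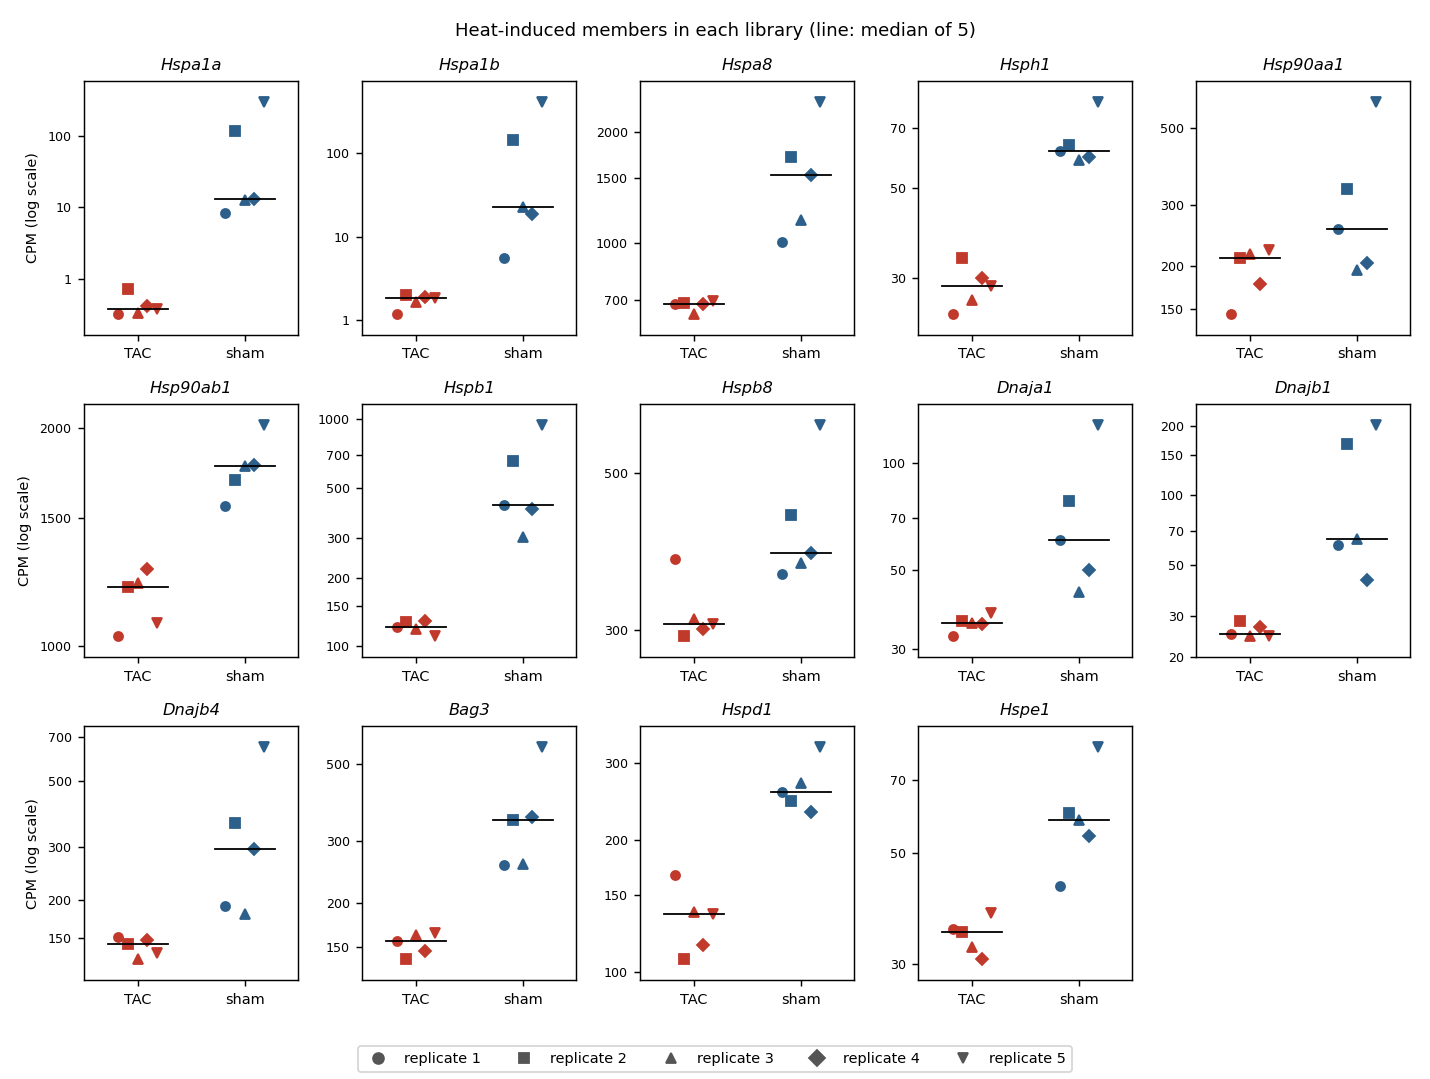
CPM (log scale, each panel with its own range) of the 14 heat-induced members in every library, with TAC left of sham, the replicate number as the symbol and the median of 5 as a line. Sham replicate 5 (downward triangle) is the highest sham library in every panel, and the TAC libraries lie below all sham libraries in 12 of the 14, the exceptions being Hsp90aa1 and Hspb8.

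Sequence just upstream of the start site is shown for a few of these genes because heat shock factors recognise repeats of GAA blocks in alternating direction, and factors of the unfolded protein response recognise the ER stress element. Windows of RefSeq (build GRCm38.p6) were found for 66 of the 82 members, and the 250 bases before the start site were searched on both strands. Capitals mark GAANNTTC or TTCNNGAA, which are overlapping pairs of blocks, in the first 4 sequences and the element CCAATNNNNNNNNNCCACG in the last. The stretch is 150 bases for Hspa1a, Hspb1 and Hsp90b1. It is 30 bases for Hspe1 and Dnajb6, where annotated exons cover the surrounding bases. For Hsp90b1 the printed stretch ends just before the start in GENCODE M21, which lies upstream of the RefSeq start used in the search. Hspa1b differs from Hspa1a at 1 of the 150 bases.
Hspa1a, chr17:34972157-34972306, minus strand: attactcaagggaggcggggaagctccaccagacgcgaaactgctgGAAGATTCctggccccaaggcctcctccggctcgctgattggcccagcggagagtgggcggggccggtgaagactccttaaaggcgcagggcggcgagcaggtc
Hspb1, chr5:135887769-135887918, plus strand: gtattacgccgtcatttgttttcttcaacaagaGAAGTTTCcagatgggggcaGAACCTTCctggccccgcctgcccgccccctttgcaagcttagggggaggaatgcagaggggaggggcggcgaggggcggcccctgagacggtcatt
Hspe1, chr1:55088053-55088082, plus strand: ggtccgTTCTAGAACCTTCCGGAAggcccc
Dnajb6, chr5:29735843-29735872, plus strand: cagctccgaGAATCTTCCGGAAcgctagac
Hsp90b1, chr10:86705510-86705659, minus strand: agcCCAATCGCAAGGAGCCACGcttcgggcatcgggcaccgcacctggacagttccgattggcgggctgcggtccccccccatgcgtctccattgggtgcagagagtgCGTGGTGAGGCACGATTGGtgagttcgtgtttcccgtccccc

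The 3-block form GAANNTTCNNGAA was found before 3 of the 66 members, Dnajb6, Hspd1 and Hspe1 (4.55%), against 0.514% of all 27025 genes with a window. Hspd1 and Hspe1 start head to head and their windows hold the same copy. Either 2-block form was found before 14 members (21.2%), against 14.5% of all genes. The ER stress element was found before Dnajc3, Hsp90b1 and Hspa5, against 0.130% of all genes. Hspe1 fell, Dnajb6 rose, and Hsp90b1 was not called. A match here is a description of letters and not a binding site.

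Hspa8 (chromosome 9, 40800984 to 40810087), the constitutive cytosolic HSP70 called HSC70, carried far more reads than its inducible relatives. It was at 683, 687, 645, 684 and 697 CPM in TAC replicates 1 to 5, and at 1011, 1712, 1157, 1534 and 2411 CPM in sham replicates 1 to 5. TAC libraries were nearly equal and sham libraries were not, and the groups did not overlap. Hspa8 fell (log2 fold change -1.20, SE 0.20, adjusted p = 0.00037), and the value was -0.87 without sham replicates 2 and 5. Pseudogenes and relatives share 39.4% of its stretches of 50 bases. Hsph1, the HSP110 exchange factor, fell in the same way (log2 fold change -1.17, SE 0.11, adjusted p = 6.8e-06). Its level was 24.6, 33.6, 26.6, 30.1 and 28.8 CPM in TAC replicates 1 to 5, and 61.7, 63.7, 58.4, 59.4 and 81.1 CPM in sham replicates 1 to 5. Here the difference was nearly as large with the 3 other sham libraries, at -1.06 without replicates 2 and 5. Hspa4 and Hspa4l, also of the HSP110 class, fell with log2 fold changes of -0.48 and -0.40, and under scaling by library size neither was called, at -0.11 and -0.04.

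Of the 13 Hspa members, 2 rose, 10 fell and 1 was not called, and under scaling by library size 2 rose and 6 fell. Hspa13, a microsomal HSP70, and Hspa14, which works with Dnajc2 at the ribosome, rose. Hspa14 was at 36.2, 30.4, 30.1, 29 and 31.3 CPM in TAC replicates 1 to 5, against 23.5, 24.5, 24.1, 26.6 and 28.3 CPM in sham replicates 1 to 5 (log2 fold change 0.31, SE 0.08, adjusted p = 0.0074). Its partner Dnajc2 also rose, with a log2 fold change of 0.20 (adjusted p = 0.046), a call that was lost without any of TAC replicates 2, 3 and 4 or sham replicates 1 to 4 (adjusted p of up to 0.11). Hspa12a, a distant relative of HSP70, fell (log2 fold change -1.19, SE 0.15, adjusted p = 5.5e-05). Its sham libraries ran against the heat-induced order. Sham replicates 1 and 3 had 42.3 and 38.6 CPM, whereas sham replicates 2, 4 and 5 had 27.9, 25.4 and 25.1, above the 12.3 to 14.9 CPM of TAC libraries. Hspa2, best known from testis, was at 9.43 to 11.2 CPM in TAC and 10.4 to 13.5 in sham and was not called, and its sign turned under scaling by library size (-0.20 and 0.17).

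Of the cytosolic HSP90 pair, the constitutive form was called and the inducible form was not. Hsp90ab1, the constitutive form, was at 1031, 1206, 1219, 1275 and 1076 CPM in TAC replicates 1 to 5, and at 1561, 1698, 1774, 1777 and 2021 CPM in sham replicates 1 to 5. It fell with no overlap (log2 fold change -0.61, SE 0.10, adjusted p = 0.00044). Hsp90aa1, the inducible form, was at 146, 211, 216, 177 and 222 CPM in TAC replicates 1 to 5, and at 256, 333, 195, 204 and 592 CPM in sham replicates 1 to 5. Its groups overlapped, and at a log2 fold change of -0.70 (SE 0.28) it was not called (adjusted p = 0.055). The call depended on single libraries: the adjusted p was 0.026 without sham replicate 3 and 0.029 without sham replicate 4, and DESeq2 also called it (0.029), whereas the log2 fold change was -0.17 without sham replicates 2 and 5. Whether the 2 genes changed unequally was not tested. Per kilobase of exon, Hsp90aa1 stood at 0.106 to 0.157 of the level of Hsp90ab1 in TAC libraries and at 0.0839 to 0.224 in sham libraries, which overlap. Of the stretches of 50 bases in Hsp90aa1, 47.5% also occur in other genes, against 3.44% in Hsp90ab1. Reads without a unique alignment may thus be missing mainly from Hsp90aa1, and this ratio need not be the true one. The ER form Hsp90b1 was at 235 to 307 CPM in TAC and 231 to 287 in sham and was not called (log2 fold change 0.13, adjusted p = 0.25), but under scaling by library size it was called higher (0.50, adjusted p = 0.00079). The level of Hsp90ab1 over Hsp90b1 per kilobase was 5.28 to 6.25 in TAC libraries and 8.89 to 10.3 in sham libraries, with no overlap.

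Per kilobase of exon, the cardiovascular small heat shock protein gene Hspb7 was the most abundant member in both groups, at 572 ± 87.1 CPM in TAC and 1138 ± 206 in sham (SD, n = 5 each). Hsp90ab1 came next in both, at 387 and 589 CPM per kilobase. Hspb1 followed in sham at 529 ± 250, whereas in TAC it stood at 118 ± 7.11, behind Hspb8, Hspa8 and Hspa5. Neighbours in that order in TAC libraries, such as Hspb8 at 163 ± 17.6 and Hspa8 at 158 ± 4.65, lay within each other's spread. Other genes share 50.1% of the stretches of 50 bases of Hspb1 and 39.4% of those of Hspa8. For Hsp90ab1 the share is 3.44%, for Hspb7 0.70%, and for Hspb8 and Hspa5 0%. Unequal parts of their reads may thus be missing, and the order may differ for that reason, which was not tested.

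Of the 7 small heat shock protein genes tested, 6 fell, or 4 under scaling by library size. Hspb1 (chromosome 5, 135887919 to 135889563), whose protein caps actin filaments and holds unfolded proteins under stress, had 121, 128, 119, 129 and 111 CPM in TAC replicates 1 to 5. It had 420, 653, 304, 403 and 946 CPM in sham replicates 1 to 5. No library overlapped, and Hspb1 fell (log2 fold change -2.17, SE 0.27, adjusted p = 5.5e-05, and -1.64 without sham replicates 2 and 5). A pair of pseudogenes share 50.1% of its stretches of 50 bases. Hspb6, a muscle HSP20 that protein kinase A phosphorylates, fell as well (log2 fold change -1.31, SE 0.15, adjusted p = 2.4e-05). It was at 243, 155, 178, 137 and 178 CPM in TAC replicates 1 to 5, and at 377, 414, 451, 444 and 529 CPM in sham replicates 1 to 5. TAC replicate 1 was its highest TAC library. Hspb7 fell (log2 fold change -0.99, SE 0.15, adjusted p = 0.0002), with 1765, 1592, 1430, 1859 and 1267 CPM in TAC replicates 1 to 5, against 3005, 3593, 2522, 2760 and 3881 CPM in sham replicates 1 to 5. Hspb3, of skeletal and heart muscle, and Hspb2, which lies head to head with Cryab, fell with log2 fold changes of -0.73 and -0.39, and Hspb2 was at -0.03 and not called under scaling by library size. Cryab, the alpha-B crystallin gene outside the symbol rule, fell too (757 ± 109 CPM in TAC, 2153 ± 507 in sham, log2 fold change -1.51). It shares 30.2% of the exonic bases of Hspb2. The seventh gene, Hspb11, rose (log2 fold change 0.51, adjusted p = 0.02), and it encodes the cilium transport protein IFT25. The summed cardiomyocyte markers were also lower in every TAC library than in any sham library, and the part of that in the fall of these muscle genes was not tested.

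Hspb8 and Bag3, which act together on damaged muscle proteins, both fell, but by different amounts. Bag3 (chromosome 7, 128523616 to 128546981) was at 156, 139, 162, 146 and 165 CPM in TAC replicates 1 to 5, and at 258, 344, 259, 353 and 556 CPM in sham replicates 1 to 5. The groups did not overlap, and its log2 fold change was -1.20 (SE 0.19, adjusted p = 0.00026), or -0.92 without sham replicates 2 and 5. Hspb8 was at 378, 294, 311, 301 and 306 CPM in TAC replicates 1 to 5, and at 359, 436, 373, 385 and 585 CPM in sham replicates 1 to 5. TAC replicate 1 lay among the sham libraries, and the log2 fold change was -0.43 (SE 0.14, adjusted p = 0.019). Without sham replicates 2 and 5 it was -0.24 and no longer called (adjusted p = 0.091), and under scaling by library size it was -0.06. Hspb7 over Hspb8 per kilobase was 2.92 to 4.35 in TAC libraries and 4.67 to 5.89 in sham libraries.

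Of the 6 Bag genes, 4 fell and none rose. Bag6, which guards tail-anchored membrane proteins, fell without overlap, at 144 to 162 CPM in TAC libraries and 203 to 241 in sham libraries (log2 fold change -0.50, SE 0.07, adjusted p = 0.00013). Bag2, an inhibitor of the ubiquitin ligase CHIP, fell (log2 fold change -0.64, adjusted p = 0.0018) and Bag1, an exchange factor of HSP70, by -0.41 (adjusted p = 0.0027). Bag4 and Bag5 had log2 fold changes of 0.13 and 0.08 and were not called. Under scaling by library size alone, 2 rose and 2 fell, and Bag1 and Bag6 lost their calls, at -0.05 and -0.14.

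The heat shock factors themselves fell. Hsf1, which switches on the heat shock genes, was at 17.9, 21, 19.9, 20.9 and 20.2 CPM in TAC replicates 1 to 5, and at 28.7, 27.2, 29.8, 26 and 25.7 CPM in sham replicates 1 to 5. Its lowest sham library was replicate 5, the library in which the heat-induced members were highest. The log2 fold change was -0.46 (SE 0.07, adjusted p = 0.00026), and it was -0.10 and not called (adjusted p = 0.40) under scaling by library size. Hsf2, a developmental relative, had 12.8 to 16.2 CPM in TAC and 21.3 to 35.3 in sham, with its highest level in sham replicate 5 (log2 fold change -0.81, SE 0.14, adjusted p = 0.00038). Of 4 other tested genes of the factor family and its regulators, Hsf4 and Hsbp1l1 fell, with log2 fold changes of -0.81 and -1.76, and none rose, whereas 2 rose under scaling by library size.

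Of 39 J-domain genes tested, 9 rose and 19 fell, and 11 were not called. Over all genes tested, 28.9% rose and 27.9% fell. Under scaling by library size 17 J-domain genes rose and 13 fell, against 51.0% and 12.7% of all genes. The median log2 fold change of the J-domain genes turned from -0.26 to 0.12, and that of all genes moved from 0.01 to 0.37. Without the 2 shallow sham libraries, replicates 1 and 2 (17117306 and 17154462 counts), 2 J-domain genes rose and 17 fell. Replicate 2 is also left out in the alternative without sham replicates 2 and 5, so these alternatives overlap. All 4 Dnaja genes fell without overlap between the groups. Dnaja1, the main farnesylated partner of cytosolic HSP70, was at 32.6, 35.9, 35.6, 35.2 and 37.8 CPM in TAC replicates 1 to 5, and at 60.9, 78.2, 43.5, 50.2 and 128 CPM in sham replicates 1 to 5. Its log2 fold change was -1.03 (SE 0.25, adjusted p = 0.0047), or -0.54 without sham replicates 2 and 5. Dnaja4 fell (log2 fold change -1.06, SE 0.15, adjusted p = 0.00014), with 44.1% of its exonic bases shared with Wdr61 on the opposite strand, and Dnaja2, the most abundant of the class, by -0.59 (SE 0.11, adjusted p = 0.00061).

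Of 10 Dnajb genes tested, 3 rose and 5 fell, against 5 and 5 under scaling by library size. For all genes the shares were 28.9% and 27.9%, or 51.0% and 12.7% under that scaling. Dnajb1, the classical heat-inducible HSP40, was at 25.2, 28.8, 24.6, 27 and 24.8 CPM in TAC replicates 1 to 5, and at 60.8, 167, 64.9, 43.3 and 202 CPM in sham replicates 1 to 5. The TAC libraries differed little from each other, whereas sham replicates 2 and 5 were far above the rest. The difference (log2 fold change -2.04, SE 0.40, adjusted p = 0.0013) became -1.12 without sham replicates 2 and 5 and stayed called. Its close relatives followed. Dnajb4 was at 152, 143, 128, 148 and 134 CPM in TAC replicates 1 to 5, and at 191, 362, 181, 297 and 645 CPM in sham replicates 1 to 5 (log2 fold change -1.25, SE 0.30, adjusted p = 0.0046), and its value was -0.67 without sham replicates 2 and 5. Dnajb5, which was not on the heat-induced list, was at 89.2, 88.8, 86.0, 73.1 and 82.2 CPM in TAC replicates 1 to 5, and at 171, 437, 189, 319 and 539 CPM in sham replicates 1 to 5. Sham replicates 5, 2 and 4 led in that order for both genes, and the log2 fold change was -1.98 (SE 0.29, adjusted p = 0.00018), or -1.44 without sham replicates 2 and 5. Dnajb2, best known from neurons, fell with even sham libraries, at 46.3 to 61.0 CPM in TAC and 95.3 to 119 in sham (log2 fold change -1.09, SE 0.09, adjusted p = 3.5e-06). Dnajb6, a suppressor of protein aggregation that is mutated in an inherited human muscle disease, rose, at 33.4, 35.7, 32.7, 38.7 and 31.6 CPM in TAC replicates 1 to 5 and at 26.7, 27.4, 28.6, 28.8 and 30.7 CPM in sham replicates 1 to 5 (log2 fold change 0.27, SE 0.07, adjusted p = 0.0072).

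The Dnajc genes share little beyond the J domain, and of 25 tested, 6 rose, 10 fell and 9 were not called. Over all genes tested, 28.9% rose and 27.9% fell. Under scaling by library size 12 Dnajc genes were higher and 4 lower, against 51.0% and 12.7% of all genes. The median log2 fold change of the Dnajc genes moved from -0.14 to 0.22, and that of all genes from 0.01 to 0.37. Dnajc27, which carries a small GTPase domain, had the smallest adjusted p of the class. It was at 14.1, 13.9, 13.9, 10.4 and 14.0 CPM in TAC replicates 1 to 5, and at 33.5, 40.4, 40.5, 40.9 and 42.1 CPM in sham replicates 1 to 5 (log2 fold change -1.57, SE 0.10, adjusted p = 8.5e-07). Dnajc12, a cochaperone of aromatic amino acid hydroxylases, fell (log2 fold change -1.22, SE 0.19, adjusted p = 0.00025). Dnajc9, which handles histones with HSP70, rose (log2 fold change 0.43, SE 0.14, adjusted p = 0.018), with 29.95, 22.3, 19.3, 17.7 and 24.9 CPM in TAC replicates 1 to 5 and 16, 16.9, 16.1, 16.1 and 19.8 CPM in sham replicates 1 to 5. Cycling-cell genes summed to 355, 268, 390, 137 and 506 CPM in TAC replicates 1 to 5 and to 2.93 to 20.6 CPM in sham libraries. Both measures were lowest in TAC replicate 4, but Dnajc9 was highest in replicate 1 and the cycling sum in replicate 5, and the part of cycling cells in its rise was not tested. Dnajc24 of diphthamide synthesis, Dnajc14, Dnajc10, Dnajc13 of endosomes and Dnajc2 rose by log2 fold changes of 0.20 to 0.36, each with overlapping groups. The calls for Dnajc14 and Dnajc13 were lost when single libraries were left out (adjusted p of up to 0.072 and 0.068). Most of these increases were small, and 4 members in all were called higher without the 2 shallow sham libraries (replicates 1 and 2), against 13 with them. Dnajb6, Dnajc9, Dnajc10, Hspa14 and Hspb11 were among those that lost the call.

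**Figure D3:**
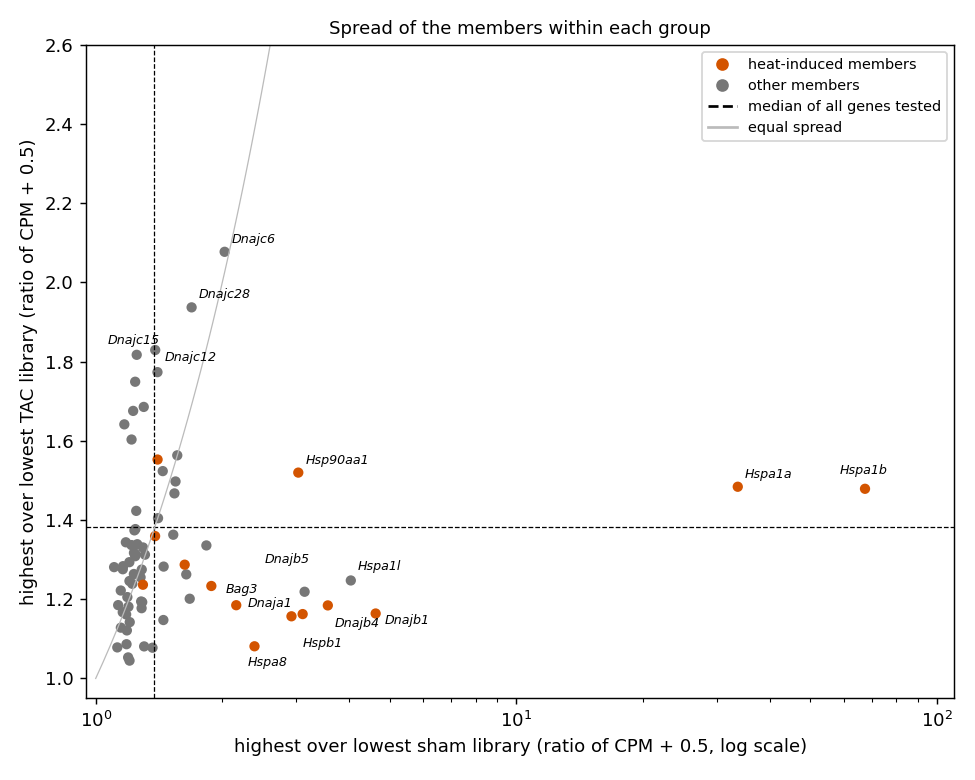
Each point is a tested member, placed by the ratio of its highest to its lowest library (CPM + 0.5) among sham libraries (x axis, log scale) and among TAC libraries (y axis, linear), with dashed lines at the medians of all genes tested. TAC libraries differed by at most 2.08 times for any member, whereas several heat-induced members lie far to the right, up to 67.4 times for Hspa1b in sham.

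Some members varied widely among sham libraries and little among TAC libraries. With 0.5 added to each CPM, no member had a highest TAC library of at least 3 times the lowest, against 3.22% of all genes tested. Among sham libraries 8 of 75 members (10.7%) reached 3 times, against 3.36% of all genes. They were Hspa1a, Hspa1b, Hspa1l, Dnajb1, Dnajb4, Dnajb5, Hspb1 and Hsp90aa1. A ratio of at least 2 was reached by 1 member, Dnajc6 (1.33%), in TAC and by 12 members (16%) in sham, against 12.1% and 11.7% of all genes. The median ratio over the members was 1.28 in TAC and 1.29 in sham, so the typical member was about as variable in TAC as in sham.

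Nearly all members of the mitochondria fell. A list of 9 members that act in mitochondria, written with results of these data known, held 8 that fell and 1, Dnajc11, that was not called, with a median log2 fold change of -0.83. Scaled by library size alone, 6 fell and 1 rose. Hspa9, the matrix HSP70 called mortalin, was at 548, 313, 384, 356 and 387 CPM in TAC replicates 1 to 5, and at 748, 734, 731, 714 and 887 CPM in sham replicates 1 to 5. It fell with no overlap (log2 fold change -0.94, SE 0.14, adjusted p = 0.00017). Hspd1, the HSP60 chamber, and Hspe1, its HSP10 lid, are neighbours on chromosome 1 and fell, with log2 fold changes of -1.01 (SE 0.13, adjusted p = 5.7e-05) and -0.79 (SE 0.14, adjusted p = 0.00053). Hspd1 was at 167, 107, 137, 115 and 135 CPM in TAC replicates 1 to 5, and at 257, 246, 270, 232 and 325 CPM in sham replicates 1 to 5. Hspe1 was at 35.3, 34.9, 32.4, 30.8 and 38.1 CPM in TAC replicates 1 to 5, and at 43.0, 60.1, 58.4, 54.3 and 81.5 CPM in sham replicates 1 to 5. For both, the lowest sham library was above the highest TAC library. Other genes, among them named pseudogenes and each other, share 42.1% of the stretches of 50 bases of Hspd1 and 22.8% of those of Hspe1.

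The J partners inside mitochondria moved with them. Dnaja3, the partner of mortalin, was at 103, 62.8, 70.7, 70.4 and 78.6 CPM in TAC replicates 1 to 5, and at 132, 130, 152, 136 and 137 CPM in sham replicates 1 to 5 (log2 fold change -0.83, SE 0.12, adjusted p = 0.00013). Dnajc28 fell (log2 fold change -1.38, SE 0.19, adjusted p = 0.00013) and Dnajc30 by -0.86 (SE 0.11, adjusted p = 4.3e-05). For Dnajc30, 26.2% of the exonic bases are shared with Bud23 on the opposite strand. Dnajc19, a part of the import motor whose loss causes a human cardiomyopathy, and its relative Dnajc15 fell with log2 fold changes of -0.56 and -0.42, Dnajc15 with overlapping groups. The call for Dnajc15 was lost without any of TAC replicates 2 to 5 or sham replicates 3 and 5 (adjusted p of up to 0.098). Under scaling by library size neither was called, at -0.21 for Dnajc19 and -0.07 for Dnajc15. TAC replicate 1 was the highest TAC library for Hspa9, Hspd1, Dnaja3, Dnajc15, Dnajc19, Dnajc28 and Dnajc30. It also had the highest sum of cardiomyocyte markers among TAC libraries, 41020 CPM, and the lowest sum of fibroblast markers, 4258. Transcripts encoded by the mitochondrial genome took 11% ± 2.10 of the counts in TAC libraries and 16.3% ± 1.42 in sham libraries (SD, n = 5 each). How far these shifts enter the mitochondrial members was not tested. Of 10 other mitochondrial chaperones and proteases, 7 fell and none rose, whereas 4 fell and 2 rose under scaling by library size. The 7 included Trap1, the mitochondrial HSP90 (77.3 ± 4.84 CPM in TAC, 136 ± 12.7 in sham, log2 fold change -0.81), and the protease Oma1 (16 ± 1.82 and 34.7 ± 3.78 CPM, log2 fold change -1.12).

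**Figure D4:**
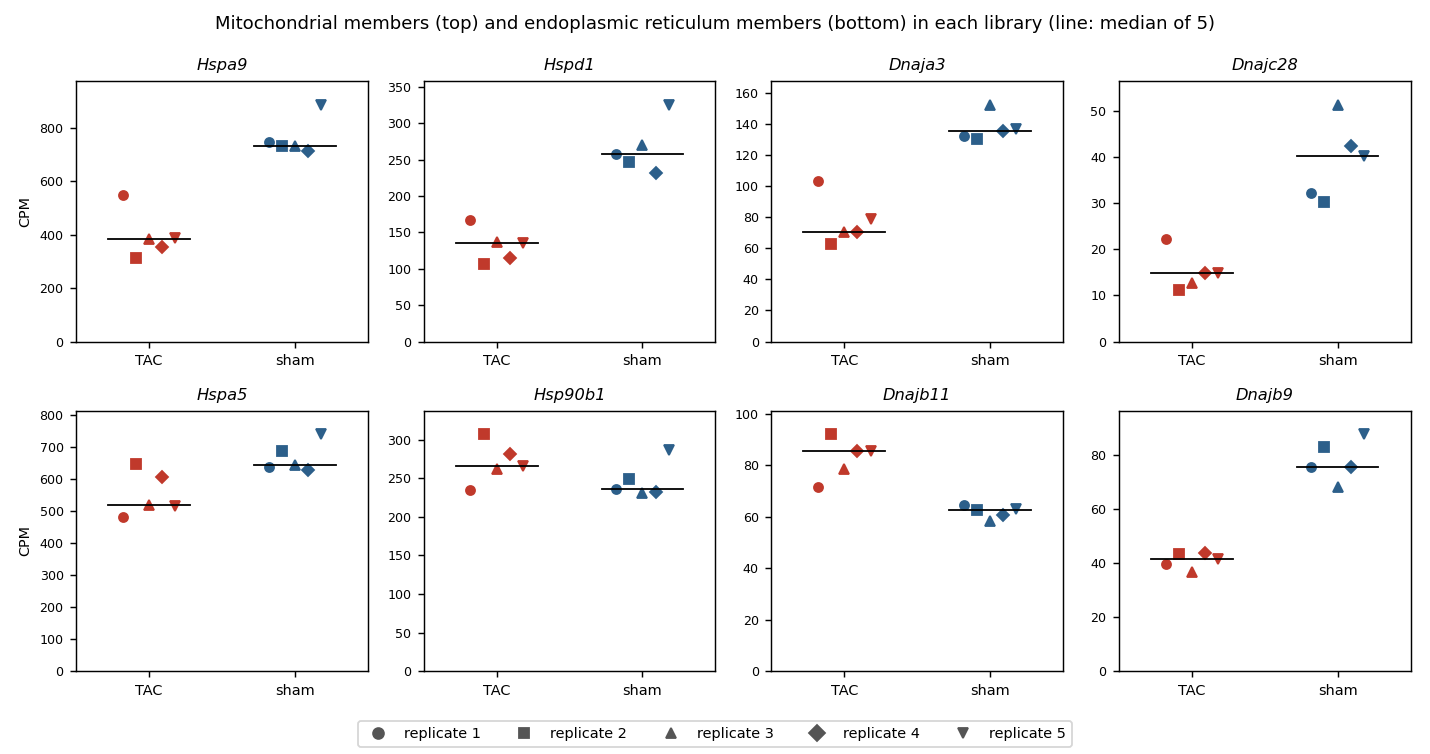
CPM (linear scale from 0) of 4 mitochondrial members (top row) and 4 members of the endoplasmic reticulum (bottom row) in every library, TAC left of sham, with the median of 5 as a line. TAC libraries lie below all sham libraries for the 4 mitochondrial members and Dnajb9, above them for Dnajb11, and among them for Hspa5 and Hsp90b1.

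Of 8 ER members, 3 rose (Dnajb11, Hspa13 and Dnajc10), 2 fell (Hspa5 and Dnajb9) and 3 were not called, with a median log2 fold change of 0.11. Under scaling by library size 5 rose and 1 fell, with a median of 0.47. Among all genes 28.9% rose and 27.9% fell, or 51.0% and 12.7% under that scaling, with a median of 0.37. Dnajb11, which brings unfolded clients to the ER HSP70, was at 71.8, 92.1, 78.5, 85.6 and 85.5 CPM in TAC replicates 1 to 5, and at 64.6, 62.5, 58.4, 60.7 and 62.9 CPM in sham replicates 1 to 5. It rose with no overlap (log2 fold change 0.42, SE 0.07, adjusted p = 0.00049). Dnajb9, whose protein keeps the stress sensor IRE1 inactive, ran the other way, at 39.7, 43.6, 36.6, 43.9 and 41.6 CPM in TAC replicates 1 to 5 against 75.8, 82.9, 68.4, 75.8 and 87.8 CPM in sham replicates 1 to 5 (log2 fold change -0.93, SE 0.08, adjusted p = 4.7e-06). Hspa5, the ER HSP70 called BiP, had 481, 647, 518, 604 and 516 CPM in TAC replicates 1 to 5, and 637, 686, 643, 626 and 738 CPM in sham replicates 1 to 5. Its groups overlapped, and the fall of -0.27 (SE 0.10, adjusted p = 0.04) was not stable. The call was lost without any of TAC replicates 1, 3 and 5 or sham replicates 2, 3 and 5, with an adjusted p of up to 0.11, and the sign turned to 0.10 (adjusted p = 0.43) under scaling by library size. Dnajc10, an ER disulfide reductase, rose (log2 fold change 0.26, adjusted p = 0.039), and this call too was lost without any of TAC replicates 2, 4 and 5 or sham replicates 1, 2, 4 and 5 (adjusted p of up to 0.099). Dnajc3 and Dnajc1, at log2 fold changes of -0.05 and 0.08, and Hsp90b1 were not called.

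Levels relative to BiP were set side by side, with no test. Hspa8 over Hspa5 per kilobase of exon was 1.04 to 1.40 in TAC libraries and 1.56 to 3.21 in sham libraries. Reads of Hspa8 may be missing here, since other genes share 39.4% of its stretches of 50 bases, against 0% for Hspa5. Hspa9 over Hspa5 was 0.475 to 1.12 in TAC libraries, with TAC replicate 1 the highest, and 1.05 to 1.18 in sham libraries. The second pair of ranges overlapped through that single TAC library. Other ER chaperones and folding enzymes, on a list outside the symbol rule, mostly rose: 12 of 14 rose and 1, Canx, fell, with a median log2 fold change of 0.61. The cyclophilin Ppib was at 47.7 ± 3.20 CPM in TAC and 25.4 ± 0.945 in sham (log2 fold change 0.91, SE 0.07, adjusted p = 1.5e-06), and Fkbp14, a prolyl isomerase of collagen folding, rose by 0.78. The call for Canx was lost in several alternatives, and its sign turned to 0.14 under scaling by library size. Fibroblast markers such as Col1a1 rose in the same libraries, and the part of that in these ER genes was not tested.

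Most cochaperones of HSP90, which lie outside the symbol rule, fell as well. Of 21 HSP90 cochaperones, 16 fell and none rose, with a median log2 fold change of -0.44. Scaled by library size alone, 5 fell and 4 rose. For this and the lists that follow, the shares of all genes were 28.9% higher and 27.9% lower. Under scaling by library size they were 51.0% and 12.7%. Unc45b, the myosin chaperone of striated muscle that works with HSP90, had the smallest adjusted p, at 69.7, 74.0, 78.7, 77.3 and 64.5 CPM in TAC replicates 1 to 5 against 275, 313, 260, 299 and 341 CPM in sham replicates 1 to 5 (log2 fold change -2.03, SE 0.09, adjusted p = 1.9e-07). Its sham libraries were even, unlike those of the heat-induced members. Ahsa1, which stimulates the ATPase of HSP90, fell (log2 fold change -0.71, SE 0.07, adjusted p = 6e-06). Of 10 HSP70 cochaperones, 3 rose and 2 fell, whereas 5 rose and none fell under scaling by library size. St13 fell (log2 fold change -0.42, and -0.05 under scaling by library size), and the iron-sulfur cluster cochaperone Hscb rose (0.35). Of the HSP-binding pair that the prefix brought into the members, Hspbp1, an exchange factor also on this list, fell (log2 fold change -0.22, adjusted p = 0.028), a call that was lost without any of TAC replicates 2 and 4 or sham replicates 1, 4 and 5 and whose sign turned to 0.14 under scaling by library size. Hspbap1 rose (log2 fold change 0.71, SE 0.14, adjusted p = 0.001). Of 8 tested subunits of the cytosolic chaperonin TRiC, 4 fell and none rose, whereas under scaling by library size 5 rose and none fell. Cct7 and Cct3 had log2 fold changes of -0.46 and -0.30, and that scaling gave -0.09 for Cct7, not called, and turned Cct3 to 0.057. Of 6 prefoldin subunits, which hand actin and tubulin to TRiC, Pfdn1 and Pfdn4 rose and Pfdn2 and Pfdn6 fell. The log2 fold change was 0.52 for Pfdn1 and -0.70 for Pfdn6, and Pfdn2, at -0.34, was at 0.016 under scaling by library size.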

How the data were processed

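RNA from 5 TAC and 5 sham libraries was grouped by sample title. The deposited values are raw counts per gene symbol, which the authors left without normalization, 1 table per library. The submitters' processing notes name STAR, bcl2fastq and the build mm10, with no versions of the tools. Which counter and annotation were used, and with what strand setting, is not given in the sources used here. Tallies that name no gene (27.4% of reads on average) were left out. From the deposited counts, edgeR 4.0.16 (R 4.3.3) was run with TMM factors, filterByExpr defaults, robust quasi-likelihood F tests and group as the only term. Calls use a Benjamini-Hochberg adjusted p under 0.05 over 15175 genes. The SE is the size of the log2 fold change divided by the square root of F. CPM are TMM-normalised, per kilobase values use GENCODE M21 exon unions, and all 82 members matched 1 gene there. Depth was 17117306 to 43956384 counts per library. Members and lists were chosen with earlier results of these data known. Genes named were a preset set plus, in each family, the called members with the lowest adjusted p (at most 4), the rarer direction's best member and the most abundant member. Others are named where their counts are given, as chosen after their values were seen. Alternatives were other scalings and filters, DESeq2 1.42.0, limma 3.58.1 voom, a replicate block, a stricter threshold, mitochondrial genes left out, and libraries left out. The test was checked on simulated data in which a small part of the genes was changed. It recovered 47.0% of changes of 1.5 times, 75.8% of 2 times and 95.2% of 4 times with the right sign. These rates are for genes drawn from all those tested. In the data 28.9% of genes rose and 27.9% fell, so the rates need not hold for the members. A member that was not called may therefore still have changed by a small amount. Same-numbered TAC and sham samples were not treated as pairs.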

Additional observations from a re-analysis of the deposited data

Results flagged for a closer look

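For the 45 named members and the members' share of counts, 92 groups of 5 libraries were checked for a highest or lowest library whose gap to its neighbour took more than 0.71 of the group's range. This picked out 13, and chance alone picks out about 1 in 20. Sham replicate 5 was such a high library for 6 members: Hspa9 at 887 CPM, Hspa4 at 315, Hsph1 at 81.1, Dnaja4 at 203, Dnaja2 at 346 and Dnajc9 at 19.8. Only Hsph1 of these is on the heat-induced list. Sham replicate 3 was high for Dnajc30 at 17.1 CPM, and sham replicate 1 was low for Dnajc27 at 33.5. In TAC, replicate 2 was high for Hspa1a at 0.723 CPM, replicate 1 for Hspb8 at 378 and replicate 4 for Dnajb2 at 61.0, whereas replicate 3 was low for Hspa8 at 645 and replicate 4 for Dnajc27 at 10.4. All 13 are single libraries, and the causes were not tested.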

How the results depend on the processing

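Of 990 values of 45 named members under 22 alternatives, 936 kept their direction and their side of the threshold. Of the 42 called members, 30 did so in every alternative run. Library size as the only scaling changed most: it gave 7741 genes higher and 1929 lower over all genes, 24 members higher and 30 lower, 6 Hspa members lower and 17 Dnaj members higher. It also turned the sign of Hspa5 (0.10), Hspa2 (0.17), Hspbp1 (0.14), Cct3 (0.057), Pfdn2 (0.016) and Canx (0.14). At an adjusted p threshold of 0.01, 5 members and 2 Dnaj members rose. Without the 2 shallow sham libraries (replicates 1 and 2) these counts were 4 and 2. They were 6 and 3 without sham replicates 2 and 5 together, an alternative chosen after seeing the data. The cause was not tested. Leaving out 1 library at a time gave 9 to 13 members higher and 43 to 46 lower, 5 to 9 Dnaj members higher (5 without sham replicate 2, 4 or 5), 18 to 19 Dnaj members lower and 9 to 10 Hspa members lower. With the replicate number as a block, 10 members rose and 46 fell. Same-numbered samples shared only a number, since their deviations correlated at -0.04 to 0.08. Few reads limit Hspa1a in TAC, where no library had more than 29.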
